A study of Mus musculus with 8 samples.

Results

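Twist2-lineage and Pax7-lineage muscle cells were compared in the cultures titled 48, which are the differentiated cultures of the study. The comparison takes 4 of the 8 libraries: 2 of Tw2_48, from adult C57BL/6 mice of genotype Tw2-CreERT2/+;R26-tdTO+, and 2 of Pax7_48, from mice of genotype Pax7-CreERT2/+;R26-tdTO+. All mice carried the inducible Cre and the tdTomato reporter and received tamoxifen every other day for 3 treatments, 10 days before the hind limb muscle was harvested. The red label therefore marks cells that expressed the driver gene during the treatment, and their progeny. Tw2_GM and Pax7_GM, 2 libraries each and titled for growth medium, came from mice of the same genotypes and serve here as context. Cells were plated on Matrigel, grown in Ham's F10 with 20% fetal bovine serum, and differentiated in high-glucose DMEM with 2% horse serum and bFGF. Hours are given for 48 in the Tw2 titles alone, and the labels are silent on the medium of the 48 cultures, the sex of the mice, and whether the 2 libraries of a group came from separate mice or cultures. They describe growth for Twist2-lineage myoblasts, and RNA as taken from freshly sorted cells although the titles name cultures.

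For each of 5457 genes the quantity compared is log2 of (Tw2_48 mean CPM + 1) over (Pax7_48 mean CPM + 1), where CPM is a read count scaled to the size of its library, not corrected for gene length. All 5457 genes are in the table because the authors' means put them at least 2-fold from Tw2_GM in at least 1 other group, and at least 4 libraries reached 10 CPM for each gene with library values, so shares below are shares of such genes and others, Twist2 among them, were not analysed here. Over the 5457 genes the difference ran from −4.79 to 3.54, with a median of 0.27 and quartiles of −0.34 and 0.94. Tw2_48 was at least 2-fold higher for 1250 genes and at least 2-fold lower for 243. At 4-fold these numbers were 92 and 45.

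Adult limb muscle is built of slow fibres, which carry the myosin heavy chain of Myh7 and depend on oxidative metabolism, and of fast fibres, which carry those of Myh2, Myh1 or Myh4 and lean more on glycolysis. Each fibre class also has its own troponins, calcium pump, calcium-storage protein and Z-disc proteins, while embryonic and neonatal isoforms (Myh3, Myh8) come first in newly formed myotubes. Satellite cells, the Pax7-expressing stem cells of muscle, withdraw from the cell cycle, express Myog and fuse when they differentiate. Twist2 encodes a basic helix-loop-helix factor of mesenchymal cells.

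The deposited means were taken apart into the CPM of the 2 libraries of each group, called deeper and shallower, and pairs of values below are given in that order. Implied sizes were 13.7 and 9.40 M reads for Tw2_48 and 10.6 and 7.64 M for Pax7_48. The 2 libraries of a group differed by a median of 0.12 (Tw2_48) and 0.11 (Pax7_48) on the log2 scale. Fibre genes were induced in both lineages: 10 of the 10 tested fast isoform genes rose from GM to 48 in each lineage, where 35.3% of all tested genes rose in Tw2 and 38.8% in Pax7. The rise in Tw2 is measured from Tw2_GM, the reference of the filter that put genes in the table. In a limma fit on log2(CPM + 1) of 5452 genes, 65.4% differed at an adjusted p under 0.05, 2363 (43.3%) of them higher in Tw2_48 and 1205 (22.1%) lower. The libraries of the groups did not overlap for 89.6% of genes, so lack of overlap in a gene named below is the usual case. These p-values measure the spread between libraries, pooled over all 4 groups, which may be technical.

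The balance of higher to lower genes depended on how libraries were scaled. As deposited, 66.2% of called genes were higher in Tw2_48. Size factors brought this share to 26.4% and shifted the median of all genes by −0.63, and quantile normalization brought it to 48.4% with a shift of −0.29. Both rescalings were computed from the listed genes alone. These genes held 73.5% and 70.8% of the implied size of the Tw2_48 libraries, against 58.3% and 58.8% in Pax7_48. Neither rescaling keeps that gap in share. The difference also followed base composition: its median was 1.17 in the 20% of genes poorest in GC and −0.27 in the 20% richest (Spearman rho −0.62 over genes, with transcript length rho 0.42, a description over genes that share libraries). Removing the trend with GC content and length gave 78.2% higher. A gene is therefore said to hold where the values as deposited, both rescaled sets (size factors, quantile normalization) and the set without that trend all called it in 1 direction. Of 5247 genes with all 4 values, 851 (16.2%) held as higher and 477 (9.09%) as lower, and these 2 shares are the background for each list below. List values with 1 alternative alone have their own background. With size factors 945 of 5452 genes were higher and 2631 lower, with a median of −0.36. Without the trend 47.2% were higher and 13.1% lower, with a median of 0.31. With quantile normalization the median was −0.02.

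Of the fibre isoform genes 8 held, and the promoters of 4 with opposite differences are shown first. Myh7 encodes the slow myosin heavy chain and Csrp3 the muscle LIM protein of slow and cardiac muscle, and both held as higher in Tw2_48. Myh4 encodes the IIb myosin heavy chain of the fastest fibres and Casq1 the fast-fibre calsequestrin, and both held as lower. Each sequence, from RefSeq on GRCm38.p6, runs from 250 bases before to 50 bases after the gene's start in that annotation, and capitals mark E-boxes (CANNTG, the letters bound by myogenic basic helix-loop-helix factors). The regions are chr14:54994577-54994876 (minus strand, Myh7), chr7:48848002-48848301 (minus, Csrp3), chr11:67237562-67237861 (plus, Myh4) and chr1:172219846-172220145 (minus, Casq1). Gene spans given below are GENCODE's, which starts Myh4 downstream of this window.
Myh7: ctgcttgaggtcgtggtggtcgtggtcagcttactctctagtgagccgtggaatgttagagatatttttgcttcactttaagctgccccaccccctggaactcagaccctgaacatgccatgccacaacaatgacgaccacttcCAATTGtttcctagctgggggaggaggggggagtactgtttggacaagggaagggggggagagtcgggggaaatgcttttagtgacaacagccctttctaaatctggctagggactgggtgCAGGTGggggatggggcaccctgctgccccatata
Csrp3: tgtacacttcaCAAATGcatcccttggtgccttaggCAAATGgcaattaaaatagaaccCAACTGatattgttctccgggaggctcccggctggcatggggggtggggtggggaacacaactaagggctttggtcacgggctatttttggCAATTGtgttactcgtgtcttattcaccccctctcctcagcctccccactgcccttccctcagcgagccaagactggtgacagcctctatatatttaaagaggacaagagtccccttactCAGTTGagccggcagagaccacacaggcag
Myh4: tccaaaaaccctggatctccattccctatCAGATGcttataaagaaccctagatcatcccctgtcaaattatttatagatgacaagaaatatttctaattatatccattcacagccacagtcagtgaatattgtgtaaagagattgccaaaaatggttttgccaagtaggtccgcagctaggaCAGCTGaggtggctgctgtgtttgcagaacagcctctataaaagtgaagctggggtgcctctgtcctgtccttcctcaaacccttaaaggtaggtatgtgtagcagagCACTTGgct
Casq1: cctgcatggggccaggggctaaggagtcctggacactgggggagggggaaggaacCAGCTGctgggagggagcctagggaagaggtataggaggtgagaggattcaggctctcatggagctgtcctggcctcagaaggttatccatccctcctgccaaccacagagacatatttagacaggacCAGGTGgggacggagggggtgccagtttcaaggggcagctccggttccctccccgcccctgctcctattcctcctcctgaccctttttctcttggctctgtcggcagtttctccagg
All 8 fibre isoform genes that held had a promoter in the RefSeq table. E-boxes numbered 2 in Myh7, 2 in Myoz2 and 5 in Csrp3 (held as higher), and 0 in Myh1, 2 in Casq1, 3 in Myh4, 3 in Mybpc1 and 3 in Ankrd2 (held as lower). An E-box is present in 72.3% of all 32851 promoters of this length, with a mean of 1.39 matches. An MCAT element (CATTCC on either strand) is present in Myh7, Myh1 and Myh4, against 14.7% of all promoters, a MEF2 site by consensus in Myoz2, Myh1 and Myh4, against 3.19%, and a CArG box in Myh4 alone of the 8, against 1.63%. Matches of different motifs may overlap, and they are letters in a window, not measured sites.

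The 2 lineages differed in myosin heavy chain expression in opposite directions for the slow gene Myh7 and the adult fast genes Myh4 and Myh1. Myh2 is not among the tested genes of the fast list. Myh7 (chr14:54970684-54994626) was at 409 and 382 CPM in Tw2_48, compared with 151 and 131 CPM in Pax7_48. Both Tw2_48 libraries were above both Pax7_48 libraries, where 89.6% of all genes lacked overlap in either direction. The difference of 1.48 ± 0.14 (log2, SE, limma adjusted p = 0.000211), a ratio of 2.80, held. Myh4 (chr11:67238029-67260446) went the other way, at 15.7 and 15.2 CPM in Tw2_48, compared with 96.5 and 116 CPM in Pax7_48. Its difference was −2.70 ± 0.14 (limma adjusted p = 2.91e-05), and it held. By the ratio of mean CPM, without the 1 added, Pax7_48 was 6.88-fold higher. Each ratio or fold given beside a gene's log2 difference is likewise of mean CPM, so the 2 need not match. Myh1, the IIx heavy chain gene just upstream of Myh4 on the same strand, was at 921 and 920 CPM in Tw2_48, compared with 1773 and 1681 CPM in Pax7_48. That difference, −0.91 ± 0.15 (limma adjusted p = 0.00169), held as well. Myosin heavy chain genes are near-identical in places, and how the authors' counting shared reads between them is not stated in the sources used here. In bulk samples fewer cells of a kind and less RNA per cell cannot be told apart.

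**Figure D1:**
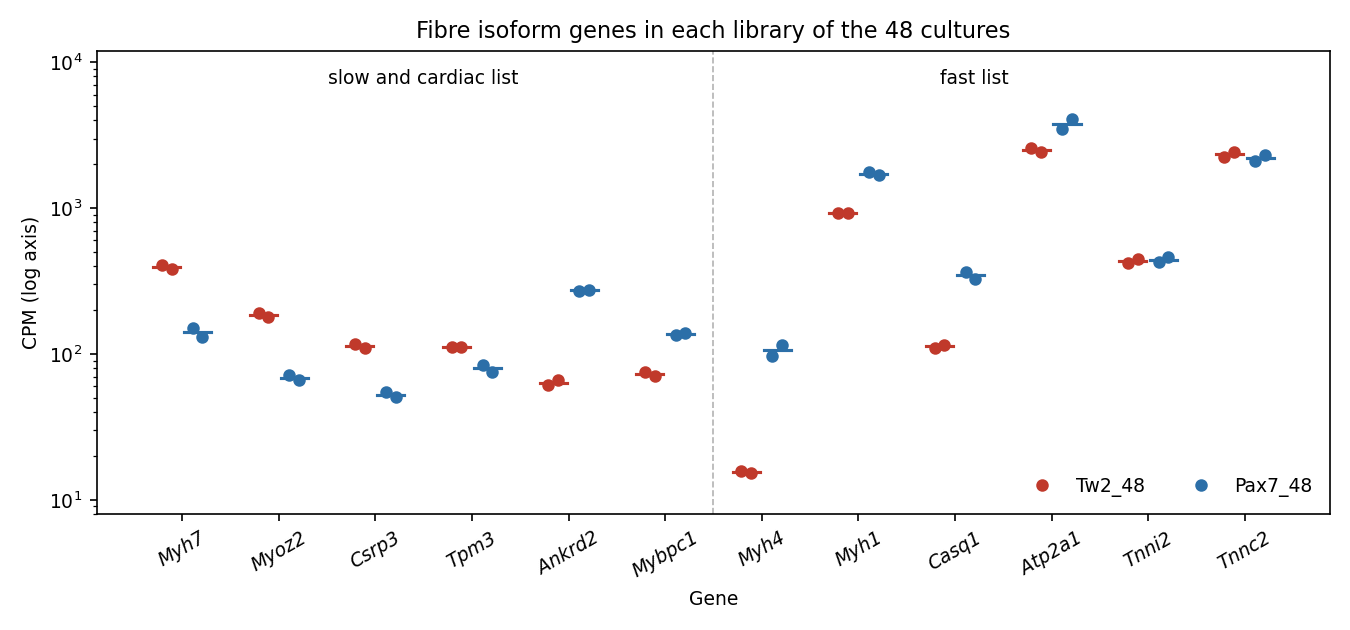
CPM (log axis) of 12 fibre isoform genes in each library of Tw2_48 and Pax7_48, points, with a bar at each group's mean. Myh7, Myoz2 and Csrp3 lie higher in both Tw2_48 libraries, Myh4, Myh1, Casq1, Ankrd2 and Mybpc1 lie higher in both Pax7_48 libraries, and the fast troponin genes Tnni2 and Tnnc2 overlap.

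Of the fast isoform genes, 0 of 10 were higher in Tw2_48 and 6 were lower, with 3 held as lower (Myh4, Casq1, Myh1) and a median difference of −0.50, which was −1.16 under size factors, −0.35 under quantile normalization and −0.02 without the trend. In the set without the trend 4 of the 10 were called higher and 3 lower. Casq1, which stores calcium in the reticulum of fast fibres, was at 111 and 115 CPM in Tw2_48, compared with 365 and 328 CPM in Pax7_48. Every Pax7_48 library was above every Tw2_48 library, and the difference was −1.61 ± 0.13 (limma adjusted p = 0.000118). Atp2a1, the fast calcium pump SERCA1, was at 2587 and 2428 CPM against 3484 and 4101 CPM, a difference of −0.59 ± 0.22 (limma adjusted p = 0.0396). Actn3, the Z-disc alpha-actinin of fast fibres, differed by −0.56 and Tpm1, an alpha-tropomyosin, by −0.44. The calls of Atp2a1, Actn3 and Tpm1 did not hold, with values of −0.08, 0.04 and −0.09 after the trend was removed. Atp2a1 and Tpm1 lost their calls when any 1 of the 4 libraries was left out, and Actn3 in each case but that without the deeper Pax7_48 library (limma adjusted p up to 0.20, 0.092 and 0.10). Fast troponins and the fast light chain did not pass the test, with 0.29 for Tnnt3, 0.08 for Tnnc2, −0.03 for Tnni2 and 0.01 for Myl1. By the authors' deposited means Mylpf, the fast regulatory light chain, was at 9452 CPM in Tw2_48 and 11082 CPM in Pax7_48, with no library values and no test.

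Slow and cardiac isoform genes were divided: 4 of 12 were higher in Tw2_48 and 2 lower, with 3 held as higher (Myh7, Myoz2, Csrp3) and 2 held as lower (Ankrd2, Mybpc1). Their median difference was 0.11, which turned to −0.55 under size factors and was 0.12 under quantile normalization and 0.76 without the trend. With size factors 3 were higher and 8 lower, and without the trend 7 were higher and 2 lower. Myoz2, the calsarcin that tethers calcineurin at the Z-disc of slow fibres, was at 190 and 180 CPM in Tw2_48, compared with 71.4 and 66.4 CPM in Pax7_48. Csrp3 was at 117 and 109 CPM against 54.7 and 50.4 CPM. Both were higher in every Tw2_48 library, by 1.41 ± 0.14 (Myoz2) and 1.09 ± 0.14 (Csrp3), with limma adjusted p of 0.000295 and 0.00069. Ankrd2, an ankyrin-repeat protein of slow fibres that responds to stretch, was lower at 60.9 and 65.9 CPM against 272 and 273 CPM. Its difference was −2.09 ± 0.13 (limma adjusted p = 4.47e-05), opposite in sign to Myh7. Mybpc1, the slow myosin-binding protein C, was at 74.7 and 70.0 CPM against 135 and 139 CPM (−0.91 ± 0.26, limma adjusted p = 0.0156). Its call was lost when any 1 of the 4 libraries was left out, at an adjusted p of up to 0.077. Tpm3, the slow tropomyosin gene, was called at 0.49 but turned to −0.17 with size factors and lost its call without either Tw2_48 library or the shallower Pax7_48 library (limma adjusted p up to 0.083). The slow troponins did not pass the test, with −0.32 for Tnni1, −0.12 for Tnnt1 and 0.01 for Tnnc1, and neither did Myl6b (0.01), the cardiac calsequestrin Casq2 (0.23) or the slow calcium pump Atp2a2 (0.20).

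Ratios of a slow to a fast gene within a library do not depend on size factors, though they do change with quantile normalization and keep the trend with base composition. They are log2 ratios of CPM without correction for length, so only their difference between groups is read. Myh7 over Myh1 was −1.17 and −1.27 in Tw2_48 and −3.55 and −3.67 in Pax7_48, a difference of 2.39, and 2.46 with the trend removed. Casq2 over Casq1 was 4.40 and 4.30 against 2.53 and 2.51, a difference of 1.84, and 1.34 with the trend removed. In both pairs the Tw2_48 libraries lay on the slow side of both Pax7_48 libraries. Tpm3 over Tpm1 (0.93), Atp2a2 over Atp2a1 (0.79) and Actn2, which all fibres use, over Actn3 (0.32) also lay higher in Tw2_48 without overlap. The pump ratio fell to 0.19 with the trend removed, and the tropomyosin ratio to 0.36 with quantile normalization. Atp2a2 was not confined to the 48 cultures, at 493 and 543 CPM in Pax7_GM and 607 and 594 CPM in Tw2_GM. Troponins did not follow: Tnni1 over Tnni2 was lower in Tw2_48 by −0.29 (−0.87 without the trend, but 0.069 with quantile normalization) and Tnnt1 over Tnnt3 by −0.41, and Tnnc1 over Tnnc2 (−0.07) overlapped and was 0.082 with quantile normalization. The ratios are given without a test, and the exact permutation test of 2 against 2 allows no p under 0.333.

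**Figure D2:**
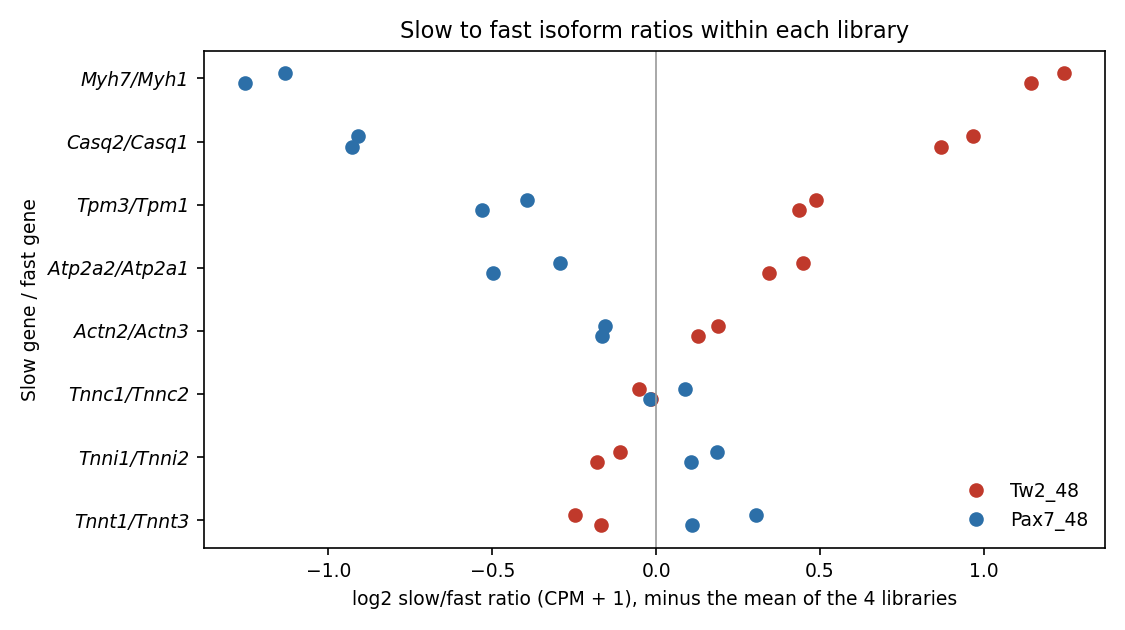
Log2 ratio of a slow to a fast isoform gene (CPM + 1) in each library of Tw2_48 and Pax7_48, for 8 pairs, each centred on the mean of its 4 libraries. Tw2_48 lies on the slow side for Myh7/Myh1, Casq2/Casq1, Tpm3/Tpm1, Atp2a2/Atp2a1 and Actn2/Actn3, and on the fast side for Tnni1/Tnni2, which turns with quantile normalization, and Tnnt1/Tnnt3.

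Developmental isoforms were abundant in both lineages. By the authors' deposited means Myh3, the embryonic heavy chain, was at 20577 CPM in Tw2_48 and 8729 CPM in Pax7_48, a log2 difference of 1.24, and the cardiac alpha-actin gene Actc1 at 20911 and 12605 CPM, a difference of 0.73. Neither has library values, so neither was tested. Of the 5 developmental genes tested, 2 were higher, 2 lower and 0 held in either direction. Acta2, the smooth muscle actin of early myotubes, was at 8616 and 8229 CPM against 5139 and 5421 CPM (0.67), and Tnnt2, the cardiac troponin T, at 5054 and 5145 CPM against 3475 and 3304 CPM (0.59). With size factors these were 0.01 and −0.07. The embryonic light chain Myl4 (−0.52) and the fetal acetylcholine receptor subunit Chrng (−0.48) were lower as deposited. Myl4 lost its call when any 1 library was left out and Chrng in each case but that without the deeper Pax7_48 library (limma adjusted p up to 0.15 and 0.085). Myh8, the neonatal heavy chain, was at 2070 and 1891 CPM against 2497 and 2610 CPM and did not pass the test (−0.37, adjusted p = 0.105 by limma).

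Among 15 tested regulators of fibre type 4 were higher, 4 lower and 1 held. The held gene was Eya4, a transcriptional co-activator, at 157 and 139 CPM in Tw2_48, compared with 48.6 and 39.1 CPM in Pax7_48 (1.73 ± 0.28, limma adjusted p = 0.00169). Tead1, which binds MCAT elements, was called at 0.98, the calcineurin-responsive Nfatc3 at 0.89 and Six4 at 0.75, without holding. Those called lower without holding included Rcan1 (−0.54), a calcineurin target and inhibitor, Nfatc1 (−0.50) and the histone deacetylase Hdac5 (−0.39). Nfatc1 and Hdac5 lost their calls when any 1 library was left out (limma adjusted p up to 0.099 and 0.15). So did Rcan1 without the deeper Tw2_48 or shallower Pax7_48 library (up to 0.083) and Six4 without the shallower Pax7_48 library (0.052). Sox6 (−0.27), which represses slow genes, Tbx15 (−0.31), Tead4 (0.04), Maf (0.19), Mafa (−0.14) and the thyroid hormone receptor Thra (−0.17) did not pass the test. In Sox6, Tead4, Maf and Mafa the libraries of the groups overlapped.

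Contractile genes shared by all fibres moved in both directions. Of 43 sarcomere and myofibril assembly genes, 13 were higher and 12 lower, with 2 and 6 held and a median of −0.05, negative with both other scalings and 0.32 with the trend removed. Ttn, the giant spring of the sarcomere, was at 1944 and 1669 CPM in Tw2_48, compared with 612 and 619 CPM in Pax7_48, and every Tw2_48 library was higher (1.55 ± 0.32, limma adjusted p = 0.004). Pdlim5, a Z-disc adaptor, was at 255 and 225 CPM against 111 and 103 CPM (1.15). On the lower side, the chaperone Hspb8 was at 371 and 381 CPM against 1207 and 1103 CPM (−1.61 ± 0.16, limma adjusted p = 0.000263). Mypn, the myopalladin of the Z-disc and I-band, was at 220 and 208 CPM against 453 and 480 CPM (−1.12). In these 4 genes the groups did not overlap, as in 89.6% of all genes, and the calls held.

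Excitation-contraction coupling, which links the membrane potential to calcium release, had 6 of 26 genes higher and 9 lower, with 3 and 4 held and a median of −0.20 (0.20 without the trend). Kcnj12, an inward rectifier potassium channel, was at 47.0 and 47.1 CPM in Tw2_48, compared with 15.3 and 10.6 CPM in Pax7_48 (1.80 ± 0.23). Cacna2d1, a subunit of the voltage-gated calcium channel, was at 322 and 246 CPM against 104 and 109 CPM (1.40), and Ryr3, a calcium release channel of developing muscle, at 51.3 and 44.4 CPM against 19.2 and 19.6 CPM (1.26). Held as lower were Popdc2 (−1.38), a Popeye-domain membrane protein, Jsrp1 (−1.05), which ties calcium channel and reticulum, Dysf (−0.89), the dysferlin of membrane repair, and the calcium sensor Stim1 (−0.74). For Jsrp1 the CPM were 187 and 208 in Tw2_48 and 387 and 434 in Pax7_48. Neuromuscular junction genes had 2 of 7 higher, 2 lower and 0 held.

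Of 13 myogenic transcription factor genes 5 were higher and 3 lower, with 2 held in each direction. Mef2a was at 708 and 631 CPM in Tw2_48, compared with 221 and 211 CPM in Pax7_48 (1.63 ± 0.25, limma adjusted p = 0.00145), and Tcf12, an E-protein partner of MyoD, at 248 and 226 CPM against 107 and 93.0 CPM (1.24). Mef2c, of the same family as Mef2a, was lower, at 83.7 and 81.8 CPM against 164 and 151 CPM (−0.92 ± 0.25, limma adjusted p = 0.0126). The call of Mef2c was lost when any 1 of the 4 libraries was left out, at an adjusted p of up to 0.068. Id3, an inhibitor of basic helix-loop-helix factors, was lower too (−1.41). Myog was at 3697 and 3859 CPM against 2491 and 2247 CPM (0.67) without holding, and at 0.02 with size factors. It lost its call without the shallower Pax7_48 library (limma adjusted p = 0.062). Pax7, the driver of one of the Cre alleles, was low in both, at 13.0 and 12.6 CPM in Tw2_48, compared with 9.58 and 9.95 CPM in Pax7_48. Its difference of 0.35 (limma adjusted p = 0.0303) was lost when any 1 library was left out (adjusted p up to 0.15) and was −0.25 with size factors.

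Fusion genes had 4 of 15 higher and 5 lower, with 1 and 2 held. Jam2, a junctional adhesion molecule, held as higher at 360 and 328 CPM against 147 and 135 CPM (1.28). Itga7, the laminin receptor of muscle, held as lower at 1098 and 1043 CPM against 1930 and 2197 CPM (−0.94), as did Kirrel (−0.59). Of the fusogens, Tmem8c, which encodes myomaker, did not pass the test (−0.23, at 2960 and 2940 CPM against 3384 and 3557 CPM). Gm7325, which encodes myomixer, was at 238 and 246 CPM against 401 and 415 CPM (−0.75, limma adjusted p = 0.0134). Its call was lost when any 1 library was left out (adjusted p up to 0.073), and it has no value with the trend removed.

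Genes of oxidative phosphorylation were lower in Tw2_48 in nearly every case as deposited. Of 55 tested nuclear-encoded genes 1 was higher and 50 were lower, with a median of −0.70, −1.36 with size factors and −0.85 with quantile normalization. With the trend for GC content and length removed the median was 0.01, against 0.31 for all genes. In that set 7 were called higher and 13 lower (of all genes 47.2% and 13.1%). The lower level in Tw2_48 was thus lost for the group there, while its median stayed below that of all genes. In all, 12 held as lower, among them Ndufb2 of complex I, at 66.6 and 70.9 CPM in Tw2_48, compared with 144 and 152 CPM in Pax7_48 (−1.10 ± 0.16, limma adjusted p = 0.00115). Atp5g1, a ring subunit of ATP synthase, was at 70.9 and 68.8 CPM against 138 and 160 CPM (−1.08). Their summed CPM came to 15014 and 15794 in Tw2_48 and 23051 and 24889 in Pax7_48.

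The list for fatty acid oxidation and the citric acid cycle had 2 of 19 genes higher and 9 lower, with 0 and 3 held. Its median was −0.32 (−0.07 without the trend). The list also includes regulators, such as pyruvate dehydrogenase kinases, so its counts are not those of the pathway enzymes alone. The held genes were the pyruvate dehydrogenase kinases Pdk2 (42.0 and 37.4 CPM against 99.9 and 120.5 CPM, −1.45) and Pdk4 (22.8 and 21.1 CPM against 48.3 and 52.2 CPM, −1.16), and the malate dehydrogenase Mdh1 (−0.40). Mdh1 lost its call when any 1 library was left out (limma adjusted p up to 0.15). Glycolysis and glycogen genes had 5 of 20 higher and 7 lower, with 1 and 2 held and a median of −0.23 (0.25 without the trend). Ldhb, the lactate dehydrogenase subunit of oxidative tissue, was at 14.1 and 17.6 CPM in Tw2_48, compared with 70.6 and 85.6 CPM in Pax7_48. All Pax7_48 values were above those of Tw2_48 (−2.24 ± 0.17, limma adjusted p = 0.000107). Tpi1, the triose phosphate isomerase, was also lower (−1.37), and Pfkfb3, which makes the activator of phosphofructokinase, was higher at 12.9 and 11.4 CPM against 4.51 and 6.28 CPM (1.05). Creatine genes had 3 of 6 higher and 2 lower, with Ckm held as higher. Ckm, the muscle creatine kinase, was at 1137 and 1141 CPM against 419 and 591 CPM (1.19 ± 0.17, limma adjusted p = 0.00122).

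Thyroid hormone governs the shift of myosins toward fast isoforms, and its local supply depends on the deiodinase Dio2, which makes the active hormone within the cell. Dio2 (chr12:90724552-90738438) was at 143 and 124 CPM in Tw2_48, compared with 10.8 and 13.0 CPM in Pax7_48. The difference of 3.39 ± 0.23 (limma adjusted p = 7.76e-05), a ratio of 11.2, was below only that of Rab6b among the tested genes. Crym, a cytosolic thyroid hormone binding protein, was at 87.5 and 84.4 CPM against 22.3 and 21.6 CPM (1.92 ± 0.16, limma adjusted p = 0.000138). Both held, out of 5 higher and 1 lower of 8 tested, with a median of 0.75. With size factors 2 were higher and 3 lower, and the median was 0.10, against −0.36 for all genes. For insulin-like growth factor signalling 4 of 9 genes were higher and 0 lower, against 1 and 3 with size factors. Irs1, the receptor substrate, held at 84.2 and 76.0 CPM against 39.1 and 31.3 CPM (1.17). Igf2 was called at 0.43, was −0.23 with size factors, and lost its call when any 1 library was left out (limma adjusted p up to 0.10).

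**Figure D3:**
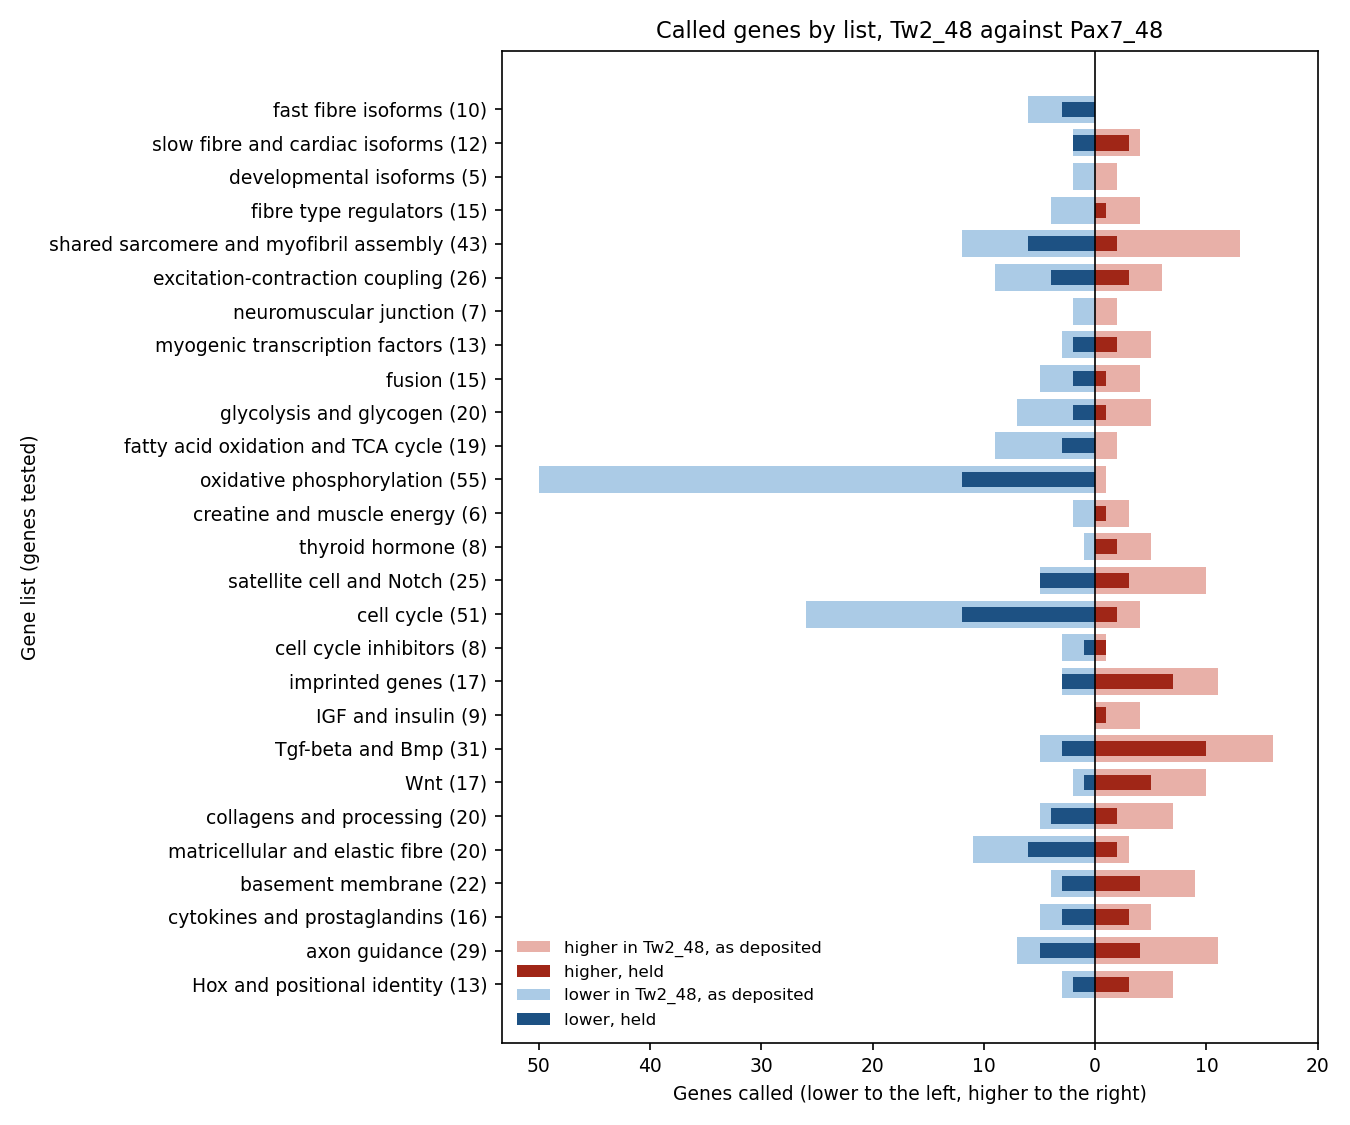
Number of tested genes called higher (right) and lower (left) in Tw2_48 for each gene list, as deposited in pale bars and held under each scaling and with the GC and length trend removed in dark bars. Oxidative phosphorylation has 50 lower genes of 55, of which 12 held, and the Tgf-beta and Bmp list has 16 higher, of which 10 held.

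Cell cycle genes had left their growth levels in both lineages: 48 of 51 fell from GM to 48 in each, where 48.9% of all tested genes fell in Tw2 and 40.5% in Pax7. The fall in Tw2 is measured from Tw2_GM, which the filter for listed genes also used. At 48 Tw2_48 was lower for 26 of them and higher for 4, with 12 and 2 held and a median of −0.44 that stayed below 0 in all 3 rescaled or trend-free sets. Ccnd1, the cyclin of G1, was at 13.7 and 15.0 CPM in Tw2_48, compared with 80.0 and 72.4 CPM in Pax7_48 (−2.33 ± 0.13, limma adjusted p = 3.87e-05), a 5.31-fold higher level in Pax7_48. The replication helicase genes Mcm5 (2.55 and 3.72 CPM against 10.4 and 11.7 CPM, −1.55) and Mcm3 (2.48 and 2.98 CPM against 8.64 and 7.59 CPM, −1.29) were lower too. In these 3 genes the groups did not overlap, as in 89.6% of all genes. E2f8, an atypical repressor E2F, was higher at 67.2 and 64.1 CPM against 14.4 and 14.4 CPM (2.11 ± 0.14). Mki67, the usual marker of cycling cells, was at 2.40 and 1.92 CPM in Tw2_48, compared with 0.658 and 1.18 CPM in Pax7_48 and did not pass the test (0.73). Of the inhibitors Cdkn2a, whose products stop the cycle through p53 and Rb, held as lower (33.0 and 34.8 CPM against 90.1 and 91.7 CPM, −1.40). Rb1, the brake on E2F factors, held as higher (342 and 299 CPM against 84.2 and 92.0 CPM, 1.85).

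Imprinted genes, expressed from 1 parental copy, had 11 of 17 tested members higher and 3 lower, with 7 and 3 held. The maternally expressed long noncoding RNAs Rian and Meg3 lie close together at chr12:109603940-109661716 and chr12:109541001-109571726. Rian was at 6.12 and 4.58 CPM in Tw2_48, compared with 190 and 138 CPM in Pax7_48, and Meg3 at 2.62 and 2.13 CPM against 86.9 and 71.4 CPM. Ndn, a paternally expressed gene on chromosome 7, was at 6.33 and 7.13 CPM against 72.1 and 71.0 CPM (−3.23 ± 0.16, limma adjusted p = 2.12e-05). The groups were far apart in all 3 genes, but Rian and Meg3 had to differ. They reached 10 CPM in every Pax7 library and in no Tw2 library, so they are in the table through Pax7. Held as higher were Zim1 (2.11), Plagl1 (1.99), Peg3 (1.89), Impact (1.80), Peg10 (1.72), Usp29 (1.56) and Mest (1.14). Usp29 reached 10 CPM in the Tw2 libraries alone, so it had to differ as well. Peg3, a zinc finger gene marking muscle progenitors, was at 939 and 815 CPM against 240.1 and 230.2 CPM. Zim1, Peg3 and Usp29 belong to 1 imprinted domain. H19 was at 35032 CPM in Tw2_48 and 30416 CPM in Pax7_48 by the authors' deposited means, with no test.

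Receptors and regulators of the Tgf-beta and Bmp pathway, which restrain or redirect myogenic differentiation, had 16 of 31 tested genes higher in Tw2_48 and 5 lower, with 10 and 3 held. With size factors 10 were higher and 10 lower, where 945 of all 5452 genes were higher and 2631 lower. The median of 0.51 turned to −0.15, above that of all genes in that set (−0.36). The follistatin gene Fst, whose product binds activins and myostatin, was at 505 and 486 CPM in Tw2_48, compared with 128 and 88.2 CPM in Pax7_48 (2.21 ± 0.20, limma adjusted p = 0.000202). Among receptors Tgfbr1 was at 88.8 and 81.4 CPM against 16.1 and 17.0 CPM (2.29), Eng, a co-receptor, at 39.1 and 38.9 CPM against 10.5 and 10.3 CPM (1.81), and Bmpr1a (1.58) and Bmpr2 (118 and 90.5 CPM against 31.5 and 35.6 CPM) were higher. Ltbp1 (1.64), which stores latent ligand in the matrix, held as well. On the lower side was Grem1, a Bmp antagonist, with 1 read in each Tw2_48 library against 92 and 58 reads in Pax7_48, a difference of −3.06 on the log2(CPM + 1) scale. Inhbb, an activin subunit, was lower (−1.03), and its call was lost without the deeper Tw2_48 library (limma adjusted p = 0.060). Mstn, the myostatin gene, was lower by −0.44, a call lost when any 1 library was left out (adjusted p up to 0.16 by limma).

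Wnt genes had 10 of 17 higher and 2 lower, with 5 and 1 held and a median of 0.75. With size factors 5 were higher and 5 lower, and the median was 0.16, against −0.36 for all genes. The ligand gene Wnt4 was at 97.3 and 87.2 CPM in Tw2_48, compared with 24.1 and 22.3 CPM in Pax7_48 (1.94 ± 0.17, limma adjusted p = 0.000169). Porcn, which lipidates Wnt ligands for secretion, was at 69.1 and 63.6 CPM against 30.8 and 24.9 CPM (1.23), and Tcf7, a nuclear effector, at 30.2 and 30.3 CPM against 11.7 and 14.3 CPM (1.16). Apc of the destruction complex (1.62) and the receptor Lgr4 (1.06) held too, while Tcf7l1, a repressor of the same family as Tcf7, was lower at 8.52 and 8.09 CPM against 16.3 and 18.1 CPM (−0.96). Satellite cell and Notch genes had 10 of 25 higher and 5 lower, with 3 and 5 held. Megf10, an engulfment receptor of satellite cells, was higher at 606 and 538 CPM against 214 and 203 CPM (1.45), and the teneurin Tenm4 was higher (1.56). The proteoglycan Sdc4 was lower at 42.3 and 41.1 CPM against 122 and 122 CPM (−1.53), as were Vcam1 (−1.03), Sdc3 (−0.87) and the receptor Notch3 (−0.81).

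Matrix genes differed in both directions. Of 20 matricellular and elastic fibre genes 3 were higher and 11 lower, with 2 and 6 held and a median of −0.58. Without the trend 5 were higher and 6 lower, with a median of −0.21. Bgn, the biglycan proteoglycan, was at 109 and 94.8 CPM in Tw2_48, compared with 252 and 255 CPM in Pax7_48 (−1.31), Spp1, the osteopontin gene, at 173 and 132 CPM against 437 and 369 CPM (−1.40), and Emilin1, an elastic fibre protein, at 3.71 and 2.45 CPM against 16.0 and 16.6 CPM (−2.10). All 3 were lower in each Tw2_48 library. Emilin1 reached 10 CPM in the Pax7 libraries alone, so it had to differ. Ctgf and Cyr61, targets of Yap and Tead, were lower by −2.71 and −1.54 but have no value with the trend removed. Collagen genes had 7 of 20 higher and 5 lower, with 2 and 4 held. Col1a2 was at 6.84 and 24.1 CPM in Tw2_48, compared with 270.2 and 246 CPM in Pax7_48 (−4.21 ± 0.44, limma adjusted p = 0.000338). The 2 Tw2_48 libraries themselves differed, and the Col1a2 difference was −5.04 without the shallower and −3.37 without the deeper of them. Its partner chain Col1a1 was at 2.04 and 20.3 CPM against 10.8 and 15.8 CPM, overlapped and did not pass the test. Col25a1, a transmembrane collagen of developing muscle that motor axons need, was at 605 and 539 CPM against 111 and 93.5 CPM (2.48 ± 0.20). Basement membrane genes had 9 of 22 higher and 4 lower, with 4 and 3 held. Laminin receptor subunits Itga6 (402 and 344 CPM against 89.6 and 75.8 CPM, 2.16) and Itgb1 (1.24) held as higher.

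Signalling and positional genes also divided. Of 16 cytokine and prostaglandin genes 5 were higher and 5 lower, with 3 held in each direction. Ptgs2, the inducible cyclooxygenase, was at 35.2 and 31.8 CPM in Tw2_48, compared with 2.25 and 2.62 CPM in Pax7_48, 13.7-fold higher (3.33 ± 0.17, limma adjusted p = 2.91e-05). Ptgis, the prostacyclin synthase that acts downstream of it, was at 287 and 324 CPM against 114 and 101 CPM (1.49). The chemokine Cxcl12 was lower at 1.89 and 3.41 CPM against 18.6 and 17.2 CPM (−2.40), as were the receptor Il1r1 (−1.68) and Csf1 (−1.35). Axon guidance genes had 11 of 29 higher and 7 lower, with 4 and 5 held, Sema3a (1.86), Robo1 (1.29) and Ntn1 (1.21) among the higher and Sema7a (−1.71), Ephb6 (−1.62) and Ntn4 (−1.50) among the lower. Hox and positional genes had 7 of 13 higher and 3 lower, with 3 and 2 held. Tbx18 was at 133 and 125 CPM against 30.2 and 24.6 CPM (2.20), and Prrx1, a limb mesenchyme factor, at 1.31 and 1.49 CPM against 25.4 and 22.3 CPM (−3.37). Prrx1 reached 10 CPM in the Pax7 libraries alone, so it had to differ.

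At 10 CPM or more, 180 genes lay only in the 4 Tw2 libraries and 48 only in the 4 Pax7 libraries. Such genes are in the table through the lineage where they are high, so that they had to differ. Among those named they are Rab6b and Usp29 for Tw2, and Aplp1, Arhgef5, Emilin1, Meg3, Prrx1 and Rian for Pax7. Beyond the lists, the largest positive difference was that of Rab6b, a Golgi trafficking GTPase, with 347 and 238 reads in Tw2_48 and 17 and 7 in Pax7_48 (3.56 ± 0.17, limma adjusted p = 2.12e-05). Mex3b, an RNA-binding protein, was at 110 and 99.9 CPM against 14.8 and 13.7 CPM (2.79), Prkg1, the cGMP-dependent kinase, at 252 and 207 CPM against 34.8 and 31.2 CPM (2.76), and Hif1a, the hypoxia-inducible factor, at 119 and 110 CPM against 23.6 and 19.8 CPM (2.35). The mechanosensitive channel Piezo2 had 113 and 49 reads in Tw2_48 and 5 and 2 in Pax7_48. In the other direction Timp1, an inhibitor of metalloproteases, was at 12.8 and 15.8 CPM against 123 and 127 CPM (−3.05), Cav1, the caveolin of membrane pits, at 1.02 and 1.49 CPM against 18.6 and 14.9 CPM (−2.98), and Mrc2, an endocytic collagen receptor, at 8.30 and 7.34 CPM against 41.0 and 52.4 CPM (−2.43). Arhgef5, a guanine nucleotide exchange factor, had 3 reads in each Tw2_48 library against 224 and 184 reads in Pax7_48. All of these held.

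Markers of other cells were looked for beside these results. Of 26 fibroblast and fibro-adipogenic markers 8 were tested, 2 higher and 2 lower. Their summed CPM was 515 and 607 in Tw2_48 and 804 and 824 in Pax7_48, and Col1a2 alone made up much of the gap. Of 16 pericyte and smooth muscle markers 11 were tested, 6 higher and 2 lower, with summed CPM of 12675 and 12266 against 10337 and 10876, and 2 held as higher: Tagln (177 and 187 CPM against 55.1 and 51.3 CPM, 1.75) and Mylk (1.36). Notch3 (−0.81) held as lower, and Acta2, given above, carried most of the summed CPM. Rgs5, a defining pericyte marker, had 0.510 and 0.213 CPM in Tw2_48 and 0 in both Pax7_48 libraries, which allows up to 0.282 and 0.393 CPM, and did not pass the test. The endothelial list had 1 tested gene of 15 (Eng), the immune list 1 of 14 (Itgam) and the adipocyte list 2 of 13. Of 11 Schwann and neural markers 3 were tested and 3 higher, with Cadm4 (2.02) and Tubb3 held. Of 10 tenocyte markers 2 were tested and 2 lower, with 1 held. Of 10 bone and cartilage markers 3 were tested, 1 higher and 1 lower, with 0 and 1 held. Markers without a test may still be expressed, since genes under 2-fold from Tw2_GM in every other group are not in the table. Xist, expressed from the inactive X of female cells, was at 351 and 272 CPM in Tw2_48, compared with 70.9 and 66.6 CPM in Pax7_48 (2.15 ± 0.54, limma adjusted p = 0.00923). Its call was lost without the deeper Tw2_48 library (adjusted p = 0.062 by limma) or the shallower Pax7_48 library (0.054). Of 189 X-linked genes 106 were higher and 24 lower, with 51 and 10 held. Of 5053 autosomal genes 2164 were higher and 1134 lower, with 799 and 467 held. The X-linked median was 0.66 (0.41 without the trend, 0.01 with size factors), against 0.25 (0.31 and −0.37) for autosomal genes. The part of other cells and of the sex of the mice in the differences above was not tested.

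**Figure D4:**
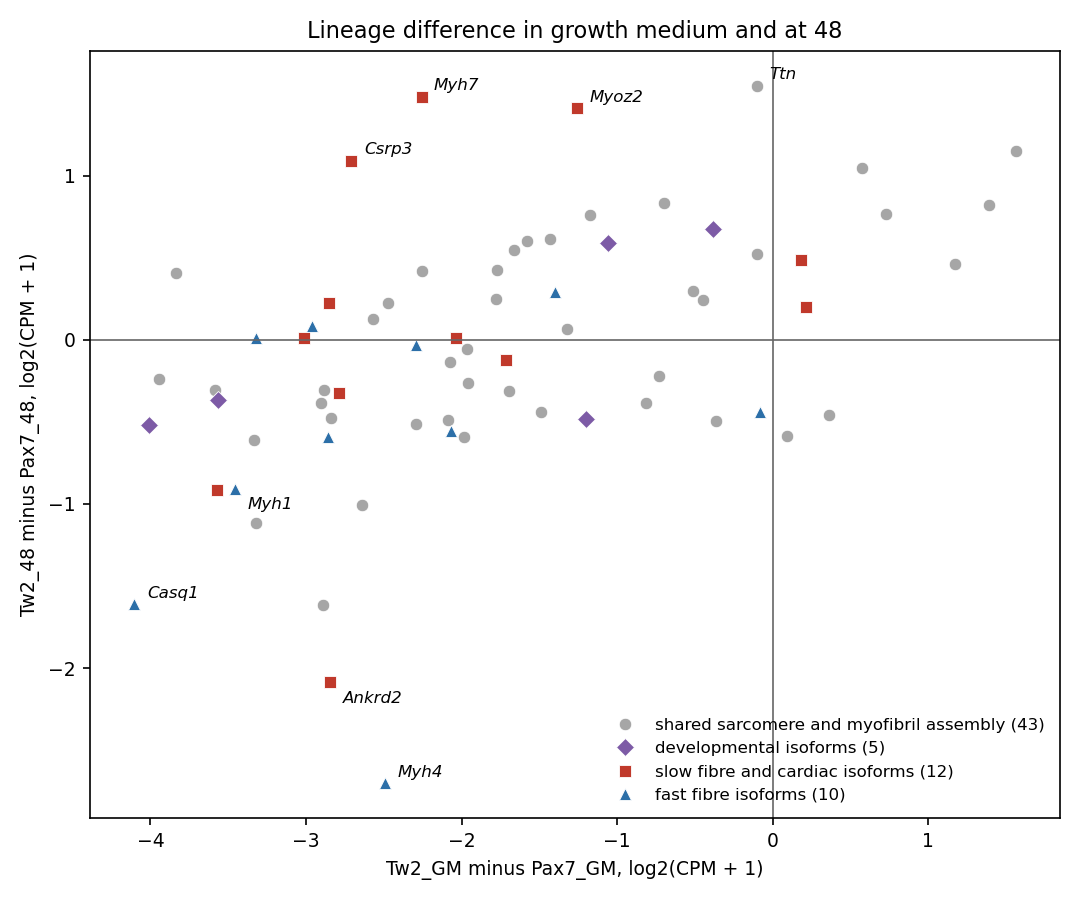
Lineage difference (Tw2 minus Pax7, log2 of CPM + 1) in GM, x axis, and at 48, y axis, for genes of the fast, slow, developmental and sarcomere lists, with each axis from its own 4 libraries. Most genes lie left of 0 in GM and closer to 0 at 48, and Myh7, Csrp3 and Myoz2 lie below 0 in GM and above 0 at 48.

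The lineage difference in fibre genes at 48 was not that of the growth cultures. In GM 0 of 10 fast and 0 of 12 slow genes were higher in Tw2 and 9 and 10 were lower (of all tested genes 48.7% were higher and 26.0% lower), with medians of −2.68 and −2.48. Genes entered the table through a 2-fold distance from Tw2_GM, so each contrast with Tw2_GM, also within 48 minus GM, reuses values that chose the genes. The test of the difference between 48 and GM, which called 18.7% of all genes, called 8 of the 10 fast, 10 of the 12 slow and 33 of the 43 sarcomere genes. Leaving out 1 library of the 48 groups took the count of all genes from 1021 to between 449 and 487. Myh7 turned from −2.26 ± 0.14 in GM to 1.48 at 48 (difference 3.74 ± 0.19, limma adjusted p = 6.95e-05). Csrp3 went from −2.71 to 1.09 and Myoz2 from −1.26 to 1.41, both with a called difference. Over the 48 against GM contrast Myh7 rose by 4.69 in Tw2 and 0.95 in Pax7 on the log2 scale. Myh4, in contrast, was as far apart in GM (−2.49 ± 0.14) as at 48, with a difference of −0.21 that did not pass the test. That difference depended on the scale of low values, at 0.49 with a pseudocount of 0.25 and −1.21 with one of 5. Ccnd1 (−0.18), Cxcl12 (0.07) and Cav1 (−0.05) did not pass the test in GM, and their differences of −2.33, −2.40 and −2.98 at 48 were called as changed from GM. Of genes called in both cultures, 2815 of 2994 had the same direction and 179 the opposite. By the authors' deposited means Myh3 stood at 91.1 CPM for Tw2_GM, against 388 CPM for Pax7_GM.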

How the data were processed

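Per the labels and the deposited header, the authors made 1 table of 5457 genes with the mean CPM (read counts scaled to library size) of each of 4 groups and log2 fold changes against Tw2_GM, which were not used here. Per the submitters' processing notes GRCm38, DESeq2 1.6.3 and TopHat2 2.0.0 were used, in roles that are not given. The table holds no library values, and the counting tool, annotation and strand handling are not given in the sources used here.

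Each mean was taken apart into whole reads of 2 libraries (tolerance 1.2 rounding errors), which gave 1 solution in all groups for 5452 genes. The other 5 appear only with the authors' means. A count of 0 allows 3 reads. limma 3.58.1 (R 4.3.3) was fitted to log2(CPM + 1), 1 mean per group over 8 libraries, without trend, with Benjamini-Hochberg adjustment over 5452 genes, after tests on simulated data. Low genes are understated by the pseudocount of 1. GC content and length came from GENCODE transcripts (5247 genes), coordinates from its GRCm38 annotation, and promoters from RefSeq GRCm38.p6.

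The genes and lists were chosen with earlier results of these data known. Named genes are Pax7, the members of the fibre isoform and regulator lists, up to 6 called members a direction of each other list, and the 30 largest differences a direction with no overlap. Mki67, Col1a1, Mdh1, Mest, Rgs5 and Tmem8c were added after their values were seen. A few genes the rule names are not reported here. Alternatives were other pseudocounts, a 10 CPM filter, size factors, quantile normalization, the GC and length trend removed, the 48 libraries alone, a variance trend, voom on the recovered reads and leaving out libraries.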

Additional observations from a re-analysis of the deposited data

Results flagged for a closer look

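For 91 of the 159 named genes the lineage difference (Tw2 minus Pax7, log2) was not the same at 48 as in GM by the limma test of that difference, and the value in parentheses is the difference at 48 minus that in GM. It was positive for 55 and negative for 36. The same test called 18.7% of all tested genes. Many named genes were chosen for a large difference at 48, or after their values were seen, which can raise their share. Spread of the 2 Pax7_GM libraries, a median of 0.33 on the log2 scale against 0.11 to 0.12 in the other groups, enters each value. So does Tw2_GM, the reference of the filter that chose the genes.

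Contractile genes had positive values. In the fast list these were Myl1 (3.33), Tnnc2 (3.05), Myh1 (2.55), Casq1 (2.49), Atp2a1 (2.27), Tnni2 (2.26), Tnnt3 (1.69) and Actn3 (1.51). Slow and cardiac genes gave Csrp3 (3.80), Myh7 (3.74), Casq2 (3.08), Tnnc1 (3.03), Myoz2 (2.67), Mybpc1 (2.66), Tnni1 (2.46), Myl6b (2.05), Tnnt1 (1.59) and Ankrd2 (0.76). Developmental genes gave Myl4 (3.49), Myh8 (3.20), Tnnt2 (1.65), Acta2 (1.05) and Chrng (0.72). Other sarcomere and coupling genes gave Actn2 (3.71), Mypn (2.20), Ryr3 (1.74), Ttn (1.65), Dysf (1.37) and Hspb8 (1.28). Among differentiation and fusion genes were Myog (2.65), Gm7325 (2.35), Tmem8c (2.12) and Mef2c (1.65) on the positive side, with Kirrel (−0.65), Six4 (−0.97) and Nfatc1 (−0.71) negative.

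Metabolic and hormone genes gave Crym (2.41), Ckm (2.23), Dio2 (1.78), Igf2 (0.75), Tpi1 (−1.07) and Pdk4 (−0.86). Cell cycle genes were mostly negative, with Mki67 (−2.39), Ccnd1 (−2.15), Mcm5 (−1.41), Mcm3 (−1.31) and Cdkn2a (−0.76), against E2f8 (1.34). Imprinted genes gave Meg3 (−1.92), Rian (−1.65), Ndn (−1.25), Plagl1 (−1.11) and Mest (−1.09). Pathway genes gave Tenm4 (3.59), Fst (1.87), Mstn (1.78), Wnt4 (1.76), Tcf7 (1.70), Porcn (1.6), Tcf7l1 (−0.80), Sdc3 (−0.83), Lgr4 (−0.87), Sdc4 (−1.07), Vcam1 (−1.16), Inhbb (−2.12) and Grem1 (−2.25). Matrix and signalling genes gave Col25a1 (2.85), Col1a2 (2.31), Tbx18 (1.19), Ctgf (−0.69), Il1r1 (−1.13), Bgn (−1.36), Csf1 (−1.42), Ntn4 (−1.52), Cyr61 (−1.66), Sema7a (−2.07), Spp1 (−2.43) and Cxcl12 (−2.47). The remaining genes were Mylk (1.89), Prkg1 (1.58), Tagln (1.57), Atp1b1 (1.52), Mex3b (1.38), Rab6b (1.24), Itgam (1.17), Bex1 (0.83), Mrc2 (−1.15), Piezo2 (−1.42), Rgs5 (−1.50), Timp1 (−2.57) and Cav1 (−2.93).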

How the results depend on the processing

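Scaling decided how many genes were called in each direction. At 48, with 2363 genes higher and 1205 lower as deposited, size factors gave 945 and 2631, and removal of the GC and length trend gave 688 lower. Leaving out 1 library of the 48 groups gave 2152 to 2756 called genes, 1462 to 1946 higher and 671 to 854 lower, with fewer samples in each fit. The test of 48 minus GM called 1021 genes, 1697 with the trend removed and 449 to 487 without 1 library. Slow over fast ratios moved beyond the spread of libraries with the trend removed for Tnni1/Tnni2 (−0.87), Casq2/Casq1 (1.34) and Atp2a2/Atp2a1 (0.19), and with quantile normalization for Tnni1/Tnni2 (0.069, turned), Tnnc1/Tnnc2 (0.082, turned), Myh7/Myh1 (2.05), Casq2/Casq1 (1.98), Atp2a2/Atp2a1 (0.57) and Tpm3/Tpm1 (0.36). Both alternatives for ratios, and the fit without the Pax7_GM libraries, were chosen after seeing the data. Of 74 counts over lists, 53 moved by over 1.5 times with size factors, 27 with the trend removed and 16 with quantile normalization. Called genes that turned sign were Igf2 (−0.23), Itgam (−0.093), Pax7 (−0.25), Tnnt2 (−0.070) and Tpm3 (−0.17) with size factors, and Actn3 (0.036), Chrng (0.048) and Rcan1 (0.092) with the trend removed. Genes that had not passed the test turned with size factors (Atp2a2 −0.46, Casq2 −0.43, Maf −0.43, Myl1 −0.65, Myl6b −0.65, Tead4 −0.61, Tnnc1 −0.65, Tnnc2 −0.58, Tnnt3 −0.37), quantile normalization (Maf −0.20, Myl6b −0.016, Tead4 −0.13) and the trend removed (Actn2 0.32, Maf −0.044, Mafa 0.32, Rgs5 −0.29, Thra 0.46, Tnni1 0.023, Tnni2 0.89, Tnnt1 0.73). Leaving out 1 library turned 7 genes that had not passed the test, with ranges of −0.36 to 0.074 for Mafa, −0.052 to 0.068 for Myl6b, −0.059 to 0.084 for Tnnc1, −2.21 to 0.60 for Col1a1, −0.0010 to 0.089 for Tead4, −0.083 to 0.022 for Tnni2 and −0.044 to 0.072 for Myl1. For Myh4 the 48 minus GM value was 0.49 with a pseudocount of 0.25 and 0.82 with voom. The cause was not tested. Of the 159 named genes 116 held, where 16.2% of 5247 genes held as higher and 9.09% as lower. Many were named for large called differences, which can raise their share. No paired analysis was possible because the deposited means carry no replicate numbers, so a replicate block could not be fitted. At 3 reads, a level under 0.218 to 0.393 CPM could not be told from 0.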

Other observations

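Several genes of membrane transport, intracellular traffic and neurons, outside the lists, were also among the largest differences. Atp1b1, the beta subunit of the sodium pump, was at 179 and 171 CPM in Tw2_48, compared with 37.0 and 33.6 CPM in Pax7_48 (2.28). Kif5b, the conventional kinesin heavy chain, was at 832 and 738 CPM against 170 and 150 CPM (2.29), and the copper pump Atp7a, an X-linked gene, at 139 and 116 CPM against 27.1 and 24.5 CPM (2.26). Hsp90aa1, an inducible chaperone used in myosin folding, was at 202 and 180 CPM against 40.3 and 34.4 CPM (2.32). On the lower side, the neuronal adaptor Bex1 was at 27.1 and 31.0 CPM against 188 and 162 CPM (−2.55), and Aplp1, of the amyloid precursor family, was also lower (−2.43). All 6 held, and the cause of these differences was not tested. They were picked among called genes without overlap, so lack of overlap was a condition of the choice. Aplp1 reached 10 CPM in the Pax7 libraries alone, so it had to differ.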
